A study of Homo sapiens with 4 samples.

Results

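Augmin, or the HAUS complex, is built from the products of HAUS1 to HAUS8, and all 8 genes were measured here in TOV112D cells, an established human epithelial ovarian cancer cell line. The genes are the subunits of 1 protein complex and were selected by their gene symbols, with results of these same arrays in view. The rule took each probe whose symbol in the platform annotation is HAUS1 to HAUS8, which gave 11 probes of 8 genes out of 28264 probes and 19090 named genes, and set the HD arrays against the ND arrays on the log2 intensity of each probe on its own. HAUS1, HAUS2 and HAUS3 have 2 probes each, called brighter and dimmer here by their mean intensity, which does not measure different amounts of transcript. Since this same contrast was used to choose the genes, the differences of HAUS probes between HD and ND are given as a description, with their errors. Counts of HAUS probes called by limma and by the study criteria are given later beside those of all probes, and they do not serve as a test of these genes. HD denotes TOV112D cells transfected with a HOXD10 expression plasmid (treatment labelled HOXD10 overexpression), and ND denotes control TOV112D cells, described as mock-transfected in the methods and as given the control plasmid in the legends. Each group has 2 single-colour arrays of Cy5-labelled RNA, each made from 1 µg of total RNA. The cells were transfected as a population, in which the methods state that most but not all cells took up the plasmid, and no selection of transfected cells is described for the array samples.

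During mitosis many spindle microtubules are nucleated not at the centrosomes but along the walls of microtubules that already exist. Augmin binds such a microtubule and brings the gamma-tubulin ring complex to it, through the adaptor protein NEDD1, so that a branch grows at a shallow angle to its mother. This work is divided between a pair of subcomplexes, one of HAUS2, HAUS6, HAUS7 and HAUS8 that contacts the mother microtubule, and one of HAUS1, HAUS3, HAUS4 and HAUS5 that forms the long coiled-coil scaffold. Cells depleted of augmin have fewer microtubules in their spindles and kinetochore fibres. HOXD10 is a homeodomain transcription factor, and the comparison asked which transcripts differ when it is overexpressed.

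The promoters of the HAUS genes are shown first, as the stretch from 250 bases before to 50 bases after the start of each gene in RefSeq, build GRCh38.p14. All 8 genes matched, with 10 windows among them, since HAUS7 and HAUS8 have 2 starts each in the table. The window of HAUS3 is printed because HAUS3 gave the largest difference among the HAUS genes and shares its start with another gene. This window lies at chr4:2242072-2242371 on the minus strand, and POLN, which encodes DNA polymerase nu, has the same one, with 300 of 300 bases identical. Also printed are windows of HAUS1 (chr18:46104135-46104434, plus strand), HAUS2 (chr15:42548588-42548887, plus strand), HAUS4 (chr14:22957041-22957340, minus strand) and HAUS8 (chr19:17075403-17075702, minus strand). They hold the word GGCGGGAA, a core recognised by E2F factors, which control many cell cycle genes. A window of HAUS7 holds it too and is not printed, and the other window of HAUS8 lacks it. The sequences run 5′ to 3′ on the strand of the gene, and capitals mark that word or its reverse complement.
HAUS3: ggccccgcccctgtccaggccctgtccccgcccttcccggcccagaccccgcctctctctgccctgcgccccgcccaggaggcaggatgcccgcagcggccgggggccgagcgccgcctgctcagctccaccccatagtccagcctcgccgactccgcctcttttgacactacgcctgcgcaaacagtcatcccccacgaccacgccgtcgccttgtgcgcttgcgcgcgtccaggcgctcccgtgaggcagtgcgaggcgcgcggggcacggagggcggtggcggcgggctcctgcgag
HAUS1: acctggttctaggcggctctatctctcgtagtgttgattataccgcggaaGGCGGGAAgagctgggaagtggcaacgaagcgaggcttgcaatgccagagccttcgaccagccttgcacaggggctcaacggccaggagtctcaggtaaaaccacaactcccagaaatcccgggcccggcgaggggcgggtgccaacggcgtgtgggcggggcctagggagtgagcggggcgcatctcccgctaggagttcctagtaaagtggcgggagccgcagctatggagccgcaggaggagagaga
HAUS2: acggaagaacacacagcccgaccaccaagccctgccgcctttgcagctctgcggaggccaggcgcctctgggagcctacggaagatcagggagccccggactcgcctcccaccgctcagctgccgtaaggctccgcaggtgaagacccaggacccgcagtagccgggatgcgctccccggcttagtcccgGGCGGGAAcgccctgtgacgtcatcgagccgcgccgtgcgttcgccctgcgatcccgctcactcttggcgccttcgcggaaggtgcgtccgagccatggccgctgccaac
HAUS4: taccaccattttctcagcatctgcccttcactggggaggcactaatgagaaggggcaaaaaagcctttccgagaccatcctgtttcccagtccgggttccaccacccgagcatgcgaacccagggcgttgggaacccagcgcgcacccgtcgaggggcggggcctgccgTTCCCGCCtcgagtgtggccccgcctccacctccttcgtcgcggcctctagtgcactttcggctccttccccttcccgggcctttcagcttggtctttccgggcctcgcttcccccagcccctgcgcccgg
HAUS8: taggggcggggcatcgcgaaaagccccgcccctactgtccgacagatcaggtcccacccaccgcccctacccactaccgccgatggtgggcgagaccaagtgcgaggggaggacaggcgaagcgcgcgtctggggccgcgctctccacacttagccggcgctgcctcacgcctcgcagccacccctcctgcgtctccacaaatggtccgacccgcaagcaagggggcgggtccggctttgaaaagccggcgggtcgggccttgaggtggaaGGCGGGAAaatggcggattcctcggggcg

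The word GGCGGGAA, searched on both strands, was present in 5 of the 10 HAUS windows and in 3.16% of the 35116 promoter windows of the table. Counted by its first base on the gene's strand, it lay 200 bases before the start in HAUS1, 60 before it in HAUS2, 81 before it in HAUS4, 67 before it in 1 window of HAUS7, and at base 22 after it in HAUS8. HAUS3, HAUS5 and HAUS6 lacked these letters in their windows. The words for the other 4 motifs were searched on both strands in the same way, and they were likewise picked after the HAUS intensities were known. CCAAT, the box bound by NF-Y, was found in 2 HAUS windows, both of HAUS7, against 34.6% of all windows. TTTGAA or TTCGAA, the core of the cell cycle homology region, was found in 1 HAUS window, that of HAUS8, at 14 bases before the start, against 16.4%. TTTAT or TTTAC, a core preferred by posterior HOX proteins, was found in 2 windows, of HAUS1 and HAUS5, against 48.2%, and TAAT, the general homeodomain core, was found in 3, of HAUS1, HAUS4 and HAUS5, against 50.2%. The HAUS3 window held none of the 5 motifs. These matches describe letters only. Over the 19090 genes of the array a comparison by the word GGCGGGAA is incomplete, since 79.4% of them have a window in the table and the rest have none there. The word was also picked after the HAUS intensities were known, so nothing is read from the comparison. Among the 15159 genes with a window, 811 (5.35%) hold the word GGCGGGAA and had a median log2 fold change of -0.08, and the 14348 without it had a median of -0.05.

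The arrays resembled each other within a group more than between groups, with Pearson's r across the log2 values of 28264 probes of 0.990 within ND, 0.995 within HD and 0.962 to 0.973 between them. The deposited values have no unit of their own, share a median of 361 on every array and do not go below 50, a value that 4414 to 5579 probes had on each array. The probe for HOXD10 was at 50 on all 4 arrays, and its position relative to the plasmid insert is unknown here, so it does not check the labels. The paper reports higher HOXD10 mRNA by qPCR and protein by western blot in TOV112D cells given the plasmid. It does not say whether those were the cells of the arrays. Of 12 epithelial and ovarian markers CDH1, KRT7 and MUC16 were at 50 on every array, EPCAM and KRT8 rose, and KRT19 and CLDN4 fell (limma, Benjamini-Hochberg adjusted p under 0.05). Over all 19090 genes, 6.67% rose and 7.97% fell. KRT8 was at 50 on both ND arrays, which leaves no spread there, and at 99.4 and 103 in HD. CLDN4 was also near the lowest value, with 101 and 92.8 in ND and 62.0 and 57.5 in HD. The summed level of the 12 markers was 2512 to 2708 in ND and 3868 to 4466 in HD. EPCAM gave 378 and 360 in ND and 1767 and 1469 in HD, and MUC1 351 and 495 against 1059 and 907. MUC1 was higher on both probes (1.23 and 0.69 on the log2 scale), as was KRT18 on its probe (0.54), and none of these was called. PAX8 (-0.77) and WT1 (-0.21), both near 50, were lower and not called. Of 6 measured leukocyte markers LYZ was at 50 throughout and PTPRC rose (sum 2826 to 3606 in ND, 2380 to 2511 in HD). The PTPRC probe that rose was dim, with 81.1 and 99.1 in ND and 277 and 250 in HD. The other PTPRC probe was at 50 on every array. CD68 (-0.63 on the log2 scale), CD14 (-0.39), CD79A (-0.27) and CD3E (-0.05) lay below 0, and none of them was called. None of 5 endothelial markers passed (1160 to 1360 and 1033 to 1038), and of 8 fibroblast markers ACTA2 rose (62643 to 71715 and 82730 to 94284). On the brightest probe of each gene, 5 of the 8 fibroblast markers lay above 0. LUM was at 1.13, which missed the threshold (limma, adjusted p = 0.0522), and its other probe, at 0.80, passed. COL1A2 was at -0.08, while its other probe, near 50, rose by 0.55. COL3A1 (-0.58) and FAP (-0.30) were lower and not called. The part of these markers in the HAUS differences was not tested. In RNA from a whole culture, fewer cells with a transcript and less of it in each cell cannot be told apart.

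HAUS3 stood apart from the other HAUS genes, with both of its probes higher in HD cells. HAUS3 is a coiled-coil scaffold subunit. On its brighter probe, PH_hs_0049300, the normalized intensity was 52.8 and 80.3 with ND, close to the lowest value of 50, and 773 and 672 with HD. Both HD arrays were thus far above both ND arrays. The log2 fold change, HD minus ND, was 3.47 (standard error 0.283), an 11.1-fold difference, and the differences between single HD and ND arrays ran from 3.07 to 3.87. As the ND values lie near the lowest value, the size depends on it, and with 50 added to each value before the log2 it was 2.74. On the dimmer HAUS3 probe, PH_hs_0019720, the ND arrays gave 97.1 and 102 and the HD arrays 232 and 234. The groups were again separate and the replicates close to each other, differing by 1.23 on the log2 scale (standard error 0.0325), or 2.35-fold, with array differences of 1.19 to 1.27. With 50 added it was 0.92. Both HAUS3 probes had the same direction, but the ranges of their array differences did not overlap. The sources used here do not place either probe on the transcript.

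**Figure D1:**
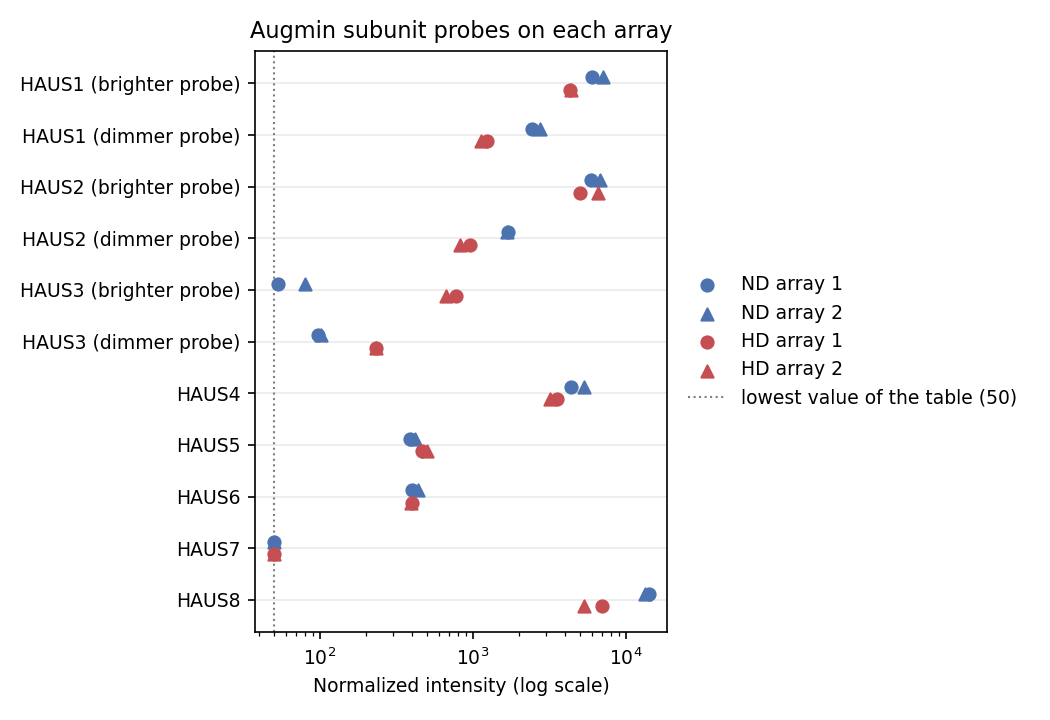
Normalized intensity (logarithmic axis, no unit) of each HAUS probe, 1 point per array, with the ND arrays in blue, the HD arrays in red and a dotted line at the lowest value of 50. Both HAUS3 probes sit higher on the HD arrays, HAUS8 and the dimmer probes of HAUS1 and HAUS2 sit lower on them, and HAUS7 lies at 50 on all 4 arrays.

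POLN, the DNA polymerase gene that shares its start with HAUS3, did not show this difference on its probes. Its probe PH_hs_0024069 gave 299 and 375 on the ND arrays against 199 and 209 on the HD arrays, or -0.72 on the log2 scale (standard error 0.149), which missed the threshold of 0.05 (limma, adjusted p = 0.0896). The groups did not overlap, and the direction was opposite to that of HAUS3. Its other probe was at 50 on every array.

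The probes with the pattern nearest to PH_hs_0049300 of HAUS3, by the root mean square difference over the 4 arrays of log2 values centred on each probe, belonged to TMEM100, PCDH15, JAG1, GREM1 and GJA3. TMEM100, a small membrane protein, was the nearest, at 0.137, with 1422 and 1688 in ND and 16800 and 15571 in HD. PCDH15, a protocadherin of the inner ear, followed at 0.174, with 54.7 and 66.5 against 574 and 560. JAG1, a ligand of Notch receptors, was at 0.183, GREM1, an antagonist of bone morphogenetic proteins, at 0.186, and GJA3, a connexin of the lens, at 0.203. The log2 fold changes of these 5 probes lay between 3.23 and 3.69. With 4 arrays in 2 groups, likeness of this kind measures mostly a similar size of difference.

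Of the other scaffold subunits, HAUS1 and HAUS4 were lower in HD cells and HAUS5 slightly higher. HAUS1, a coiled-coil subunit, was lower on both probes. The brighter probe, PH_hs_0030243, gave 6004 and 7095 on the ND arrays against 4358 and 4405 on the HD arrays, or -0.57 on the log2 scale (standard error 0.108), with array differences of -0.70 to -0.45, and it was -0.42 with quantile and -0.35 with cyclic loess normalization. The groups did not overlap, and the ND arrays were farther from each other than the HD arrays. The dimmer probe, PH_hs_0035998, gave 2442 and 2754 on the ND arrays against 1240 and 1137 on the HD arrays. This was a larger difference, -1.13 on the log2 scale (standard error 0.0960), with array differences of -1.28 to -0.98 that do not overlap those of the other HAUS1 probe.

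HAUS4, also of the coiled-coil scaffold, has 1 probe, which gave 4398 and 5315 in ND and 3547 and 3207 in HD. The HD arrays were both lower, by a log2 fold change of -0.52 (standard error 0.138), with array differences of -0.73 to -0.31. HAUS5, the remaining scaffold subunit, gave 387 and 420 on the ND arrays against 462 and 501 on the HD arrays. Here the HD arrays were both a little higher, by 0.26 on the log2 scale (standard error 0.0754), with array differences of 0.14 to 0.37. Within the scaffold subcomplex the log2 fold changes thus ran from -1.13 to 3.47.

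In the microtubule-binding subcomplex HAUS8 was lower in HD cells. HAUS8, known also as HICE1, holds the microtubule-binding stretch at the tip of the complex. Its probe gave 14162 and 13411 in ND and 6996 and 5363 in HD, so that both HD arrays lay far below both ND arrays while also differing from each other. The log2 fold change was -1.17 (standard error 0.174), which puts ND 2.25-fold above HD, with array differences of -1.40 to -0.94. This value depended on the scaling of the arrays, being -0.93 after quantile normalization and -0.82 after cyclic loess normalization.

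HAUS2 gave different answers on its probes. The brighter probe, PH_hs_0048795, gave 5912 and 6798 on the ND arrays against 5009 and 6629 on the HD arrays. These ranges overlapped, and the log2 fold change of -0.14 (standard error 0.201) was smaller than its error. It turned to 0.04 after quantile and 0.12 after cyclic loess normalization, and to 0.06 without HD replicate 1. Its dimmer probe, PH_hs_0027578, gave 1710 and 1683 on the ND arrays against 953 and 822 on the HD arrays, which did not overlap. The log2 fold change there was -0.94 (standard error 0.0960), with array differences of -1.06 to -0.82, so that no array difference of this probe came within the range of -0.44 to 0.16 of the other.

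HAUS6, known also as FAM29A, is the subunit that links augmin to NEDD1. Its probe gave 398 and 435 in ND and 403 and 397 in HD, values that overlapped, at -0.06 on the log2 scale (standard error 0.0595). HAUS7, a subunit also known as a partner of the deubiquitinase UCHL5, was at 50 on all 4 arrays, so it has no measured level and no fold change. BGN, which encodes the matrix proteoglycan biglycan and overlaps HAUS7 in the annotation, had a probe with 2012 and 2189 on the ND arrays against 1780 and 1774 on the HD arrays, or -0.24 on the log2 scale (standard error 0.0557), which missed the threshold (limma, adjusted p = 0.104). POLN and BGN were the only genes with a named probe among the 10 whose spans overlap a HAUS gene.

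**Figure D2:**
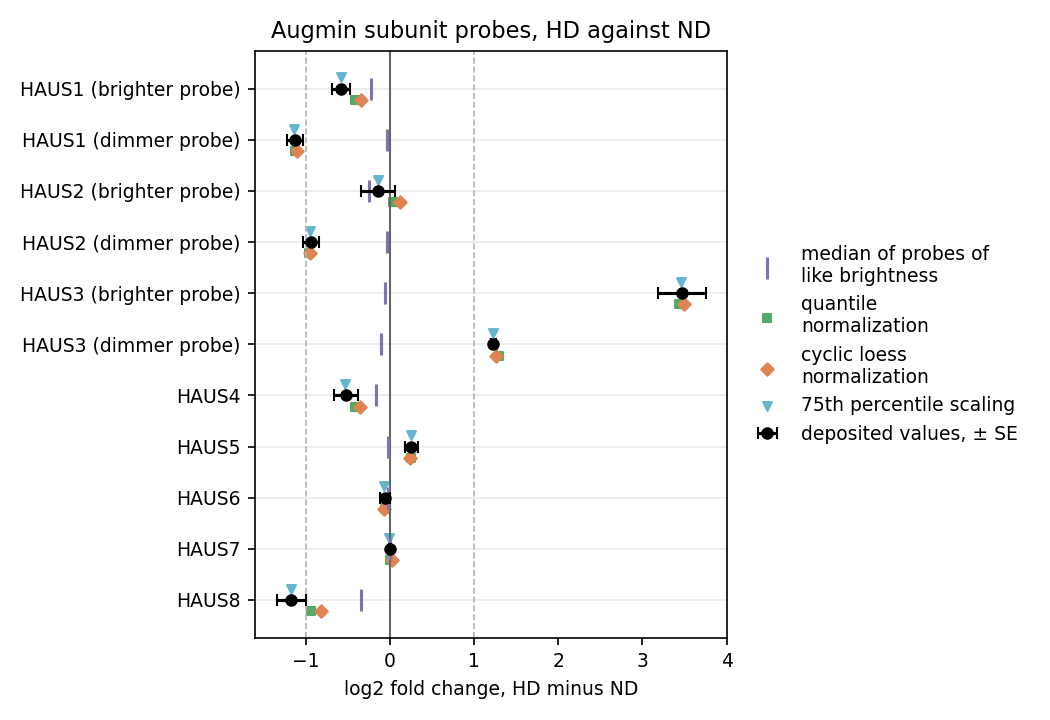
Log2 fold change (HD minus ND, horizontal axis) of each HAUS probe with the deposited values (black, bars of 1 standard error) and under 3 other scalings (coloured), with purple ticks for the median of probes of like brightness and dashed lines at 1 in either direction. The HAUS3 probes lie at 3.47 and 1.23, and with the deposited values HAUS8 and the dimmer probes of HAUS1 and HAUS2 lie between -1.17 and -0.94.

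Ordered by the size of the log2 fold change, the probes ran from HAUS3 (3.47 and 1.23) over HAUS8 (-1.17), HAUS1 (-1.13), HAUS2 (-0.94), HAUS1 (-0.57), HAUS4 (-0.52), HAUS5 (0.26) and HAUS2 (-0.14) to HAUS6 (-0.06) and HAUS7. The array differences of HAUS8, of the dimmer HAUS1 probe and of the dimmer HAUS2 probe overlap each other, as do those of HAUS4 and the brighter HAUS1 probe, so these neighbours do not differ beyond their spread. In all, 3 probes had a log2 fold change above 0 and 7 below 0, while HAUS7 has none. With HAUS7 counted as 0 the median was -0.14, against -0.02 for all probes counted likewise. Over the 10 HAUS probes that exceeded 50 on at least 1 array the median was -0.33, against -0.11 for the 24855 such probes of the whole array. On 8 of the 11 probes the HD and ND arrays did not overlap, 3 with HD higher and 5 with HD lower, in a table where 24.9% of all probes had both HD arrays above both ND arrays and 34.8% had both below.

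At an adjusted p under 0.05 from limma over all probes, 2 HAUS probes, both of HAUS3, were called higher and 2, of HAUS1 and HAUS2, were called lower, with 7 not called, where 6.65% of all probes were called higher and 7.19% lower. By the criteria of the study's methods, which ask for a 2-fold difference (1 on the log2 scale) and an unadjusted p below 0.05, the calls were 2 higher, again of HAUS3, and 2 lower, of HAUS1 and HAUS8, against 6.11% and 6.27% of all probes. The rules differed on HAUS8 (-1.17), which met the study criteria but not the adjusted p, and on the dimmer HAUS2 probe (-0.94), which passed the adjusted p but lay just under the 2-fold limit, while the dimmer HAUS1 probe (-1.13) met both. The HAUS8 adjusted p from limma, 0.0595 here, depended on the fit. It was 0.00585 with 75th percentile scaling and 0.0212 with cyclic loess, but 0.0608 with quantile normalization and 0.0825 with robust eBayes. The contrast that these counts use also chose the genes, so nothing is read from them. No probe of the array, HAUS or other, passed an adjusted p of 0.05 by limma when ND replicate 1, ND replicate 2, HD replicate 1 or HD replicate 2 was left out, in fits with 1 residual degree of freedom, while by the study criteria 3 to 5 HAUS probes were still called. With 2 arrays in each group, an exact two-sided permutation test of a single probe could not reach a p below 0.333.

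The brightness of a probe moved with the difference between the groups on these arrays, and its part in the HAUS values was not tested. Among probes within 0.5 of the mean log2 intensity of HAUS8 the median log2 fold change was -0.35, and for the brighter probes of HAUS1 and HAUS2 and the HAUS4 probe it was -0.23, -0.25 and -0.16. The HAUS8 value of -1.17 lies below that median, as do the HAUS1 and HAUS4 values, whereas that of HAUS2, -0.14, lies above it. Around the other HAUS probes above 50 the medians were close to 0, at -0.03 for the dimmer probes of HAUS1 and HAUS2, -0.06 and -0.10 for those of HAUS3, and -0.02 for HAUS5 and HAUS6.

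**Figure D3:**
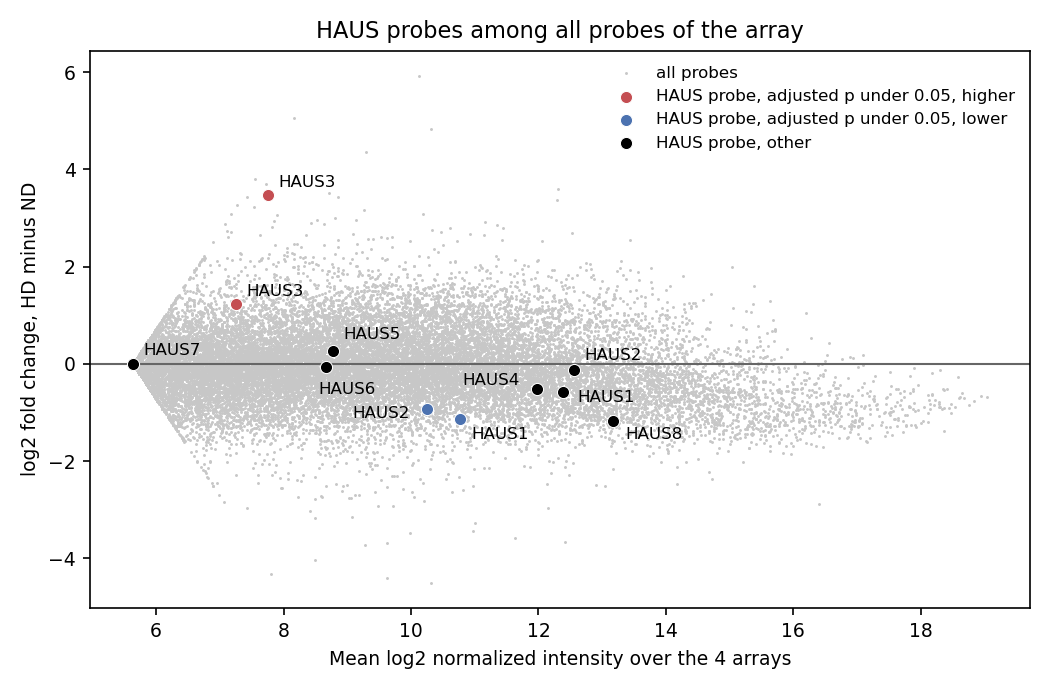
Log2 fold change (HD minus ND) against the mean log2 normalized intensity over the 4 arrays for all 28264 probes (grey), with the 11 HAUS probes as large points, red or blue where the adjusted p from limma was under 0.05. The HAUS3 probe at 3.47 lies near the upper edge of probes of its brightness, and HAUS8 lies at -1.17 among bright probes, whose grey cloud reaches below 0.

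The genes that work with augmin were taken as lists of 67 genes in all, 1 probe a gene (that with the highest mean intensity), chosen by their known roles but with earlier results of these arrays known. At an adjusted p below 0.05 by limma, 9 of these rose, 5 fell and 53 were not called, where 6.67% of the 19090 genes rose and 7.97% fell. After quantile normalization 26 rose and 3 fell, after cyclic loess normalization 34 and 3, and after scaling to the 75th percentile 21 and 17, and with any 1 array left out 0 passed by limma, with 26 to 29 at an unadjusted p under 0.05. Over all 28264 probes the calls grew with the scaling too, from 1879 higher and 2033 lower with the deposited values. They were 3305 and 2750 after quantile normalization, 4973 and 3929 after cyclic loess, and 4256 and 5216 after 75th percentile scaling. The shares of 6.67% and 7.97% hold for the deposited values only. Whether the lists differ from all probes under the other scalings was not tested. The gamma-tubulin ring complex, which augmin recruits, had 3 of 11 genes that rose, 1 that fell and 7 that did not pass. Its median log2 fold change was 0.17 (0.36 after quantile and 0.34 with cyclic loess normalization) against -0.05 for all genes. MZT1, a small protein that helps the ring complex to assemble and attach, rose from 1290 and 1342 on the ND arrays to 3150 and 3041 on the HD arrays. Its log2 fold change was 1.23 (standard error 0.0365, adjusted p = 0.0256 from limma). NEDD1, the adaptor between augmin and the ring complex, rose from 2904 and 3109 to 7060 and 6657. Its log2 fold change was 1.19 (standard error 0.0593, adjusted p = 0.0327 from limma), and its further probes gave 0.82, which passed, and -0.89, which did not, so the probes of NEDD1 disagree in direction. TUBGCP3, a core subunit of the ring, rose from 549 and 631 to 1208 and 1116, by 0.98 on the log2 scale (adjusted p = 0.0448 from limma). TUBG2, a second gamma-tubulin gene, fell from 2018 and 1928 to 1545 and 1526, with a log2 fold change of -0.36 (adjusted p = 0.0419 from limma). MZT2B had log2 fold changes of -1.14, -1.30 and -0.998 on its probes, of which only the last passed, and on the probe that stands for it in the list it is counted as not passing. Probes of like brightness to that listed probe, at -1.14, had a median of -0.91. TUBGCP5 was not called on the probe taken for it, at 0.61, while its other probe rose by 0.92 (adjusted p = 0.0430 from limma).

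Among 8 proteins that hold gamma-tubulin at centrosomes, 1 rose, 0 fell and 7 did not pass, with a median of 0.51. This was 0.55 with quantile and 0.60 with cyclic loess normalization, where 3 and 5 rose. Some further probes differed from the probe taken for the gene. CEP152 lay at -0.35 on the probe taken and at 0.60 on its other probe, and neither passed. PDE4DIP lay at -0.14 on the probe taken, while a further probe rose by 1.40 (adjusted p = 0.0373 from limma) and its remaining probes did not pass. CEP192, a scaffold of the mitotic centrosome, rose from 801 and 924 to 1641 and 1517, by 0.88 on the log2 scale (adjusted p = 0.0492 from limma). Of 22 spindle assembly factors 4 rose, 0 fell and 18 did not pass, and the median was 0.35. After quantile normalization 11 of them rose and the median was 0.60, and with cyclic loess 15 rose and it was 0.65. For this list and the centrosomal list, calls over all probes also grew under these normalizations, as given above. RCC1 was not called on the probe taken for it, at -0.62. Its further probes gave -1.37, which fell (adjusted p = 0.0457 from limma), and -0.15, which did not pass. EML4, a microtubule-binding protein, rose from 4776 and 5265 to 20547 and 16974, by 1.90 on the log2 scale (standard error 0.138, adjusted p = 0.0373 from limma). CKAP5, a microtubule polymerase, rose from 1143 and 1267 to 4130 and 3157, by 1.59 (standard error 0.184, adjusted p = 0.0479 from limma), with its HD arrays farther apart than its ND arrays. DLGAP5, which stabilises kinetochore fibres, rose from 603 and 665 to 1946 and 1788, by 1.56 (standard error 0.0840, adjusted p = 0.0332 from limma). CLTC, the clathrin heavy chain, which crosslinks kinetochore fibres, rose by 1.14 (adjusted p = 0.0466 from limma) on the probe taken for it, from 20806 and 25050 to 52211 and 48426, while a further CLTC probe had a log2 fold change of 0.09 and another was at 50 on every array. TPX2, a branching factor that works alongside augmin, lay at 0.36 on the log2 scale and was not called (limma, adjusted p = 0.156).

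**Figure D4:**
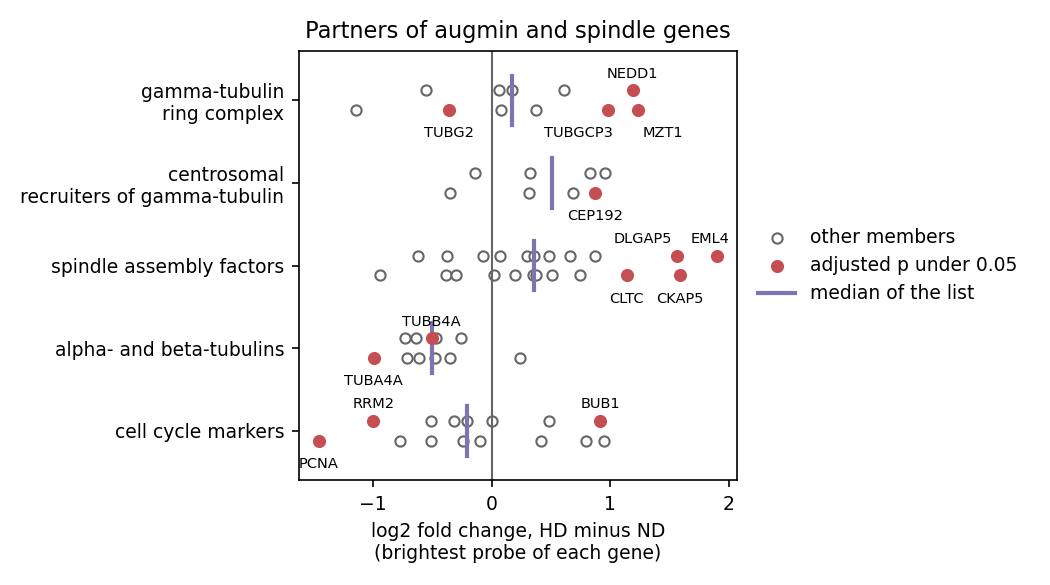
Log2 fold change (HD minus ND) of each gene in 5 lists of augmin partners, spindle, tubulin and cell cycle genes, 1 probe a gene, with filled red points for an adjusted p under 0.05 from limma and a bar for the median of each list. The medians are 0.17, 0.51, 0.35, -0.50 and -0.21 from top to bottom, and the last 2 lie between -0.07 and 0.03 after quantile or cyclic loess normalization. After those normalizations the cell cycle median equals the value of probes at 50 on all 4 arrays, as BUB1B was.

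Of 11 alpha- and beta-tubulins, the building blocks of microtubules, 2 fell, 0 rose and 9 did not pass, with a median of -0.50. TUBA4A fell from 441 and 449 to 241 and 209, with a log2 fold change of -0.99 (adjusted p = 0.0420 from limma), and TUBB4A from 793 and 863 to 592 and 575, with -0.50 (adjusted p = 0.0478 from limma). The tubulin median was -0.07 after quantile and 0.02, the other direction, after cyclic loess normalization. With the deposited values, medians of probes of like brightness ran from -0.98 around TUBB4B to -0.04 around TUBA4A and -0.03 around TUBB4A. Of 15 cell cycle markers 1 rose, 2 fell and 12 did not pass, with a median of -0.21 that became 0 with quantile and 0.03 with cyclic loess normalization. BUB1B, 1 of those that did not pass, was at 50 on all 4 arrays and has no measured fold change. The medians of 0 and 0.03 equal the values that probes at 50 on every array take under these normalizations, so they give no measured level of change. PCNA, the sliding clamp of DNA replication, fell from 62726 and 65842 to 24941 and 22068, with a log2 fold change of -1.45 (adjusted p = 0.0346 from limma). RRM2, a subunit of ribonucleotide reductase, fell from 60112 and 64185 to 31408 and 30883, with -0.996 (adjusted p = 0.0308 from limma), and its other probe, at -0.76, did not pass. BUB1, a kinase of the spindle checkpoint, rose from 2010 and 2007 to 4046 and 3546, by 0.92 (adjusted p = 0.0420 from limma). Probes of like brightness had median log2 fold changes of -0.71 for PCNA, -0.73 for RRM2 and -0.09 for BUB1. The part of brightness in these differences was not tested. The list thus held genes that changed in both directions.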

How the data were processed

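Total RNA of TOV112D cells was measured on single-colour (Cy5) oligonucleotide arrays. The authors scanned the slides, normalized the signals (the methods name centring at the 75th percentile) and deposited intensity values on a linear scale, which share a median rather than that percentile and have a lowest value of 50. How background was treated is not given in the labels or methods. The log2 of each deposited intensity entered a 2-group model across 28264 probes (limma 3.58.1, lmFit and eBayes, R 4.3.3), with Benjamini-Hochberg adjustment, no filter and no pseudocount. It had 0.543 prior and 2 residual degrees of freedom. The fit was tested on simulated data. The methods do not say whether the replicates are technical or biological, so p-values cover only the spread among these arrays, which may be technical, and 2 per group limit the precision.

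Symbols came from the platform annotation (25893 probes with 1 symbol, 0 with several, 2371 with none). Named genes were all HAUS probes, named genes overlapping them, up to 4 members of each related list with the smallest adjusted p under 0.05, and the 5 probes nearest in pattern to the HAUS3 probe with the largest difference. TPX2, MZT2B, TUBGCP5, CEP152, PDE4DIP and RCC1, and the word searches in RefSeq promoters (Python 3.11.15), were added after values were seen. The members and lists were chosen with earlier results of these data known. No protein sequences were used here.
Other scalings, an added 50, filters on dim probes, other variance models, a replicate block, another choice of probe for each related gene and the omission of each array were tried as alternatives.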

Additional observations from a re-analysis of the deposited data

How the results depend on the processing

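The 4 HAUS probes called at an adjusted p under 0.05 from limma became 7 with arrays scaled to the 75th percentile, 7 with probes above the lowest value on all 4 arrays, and 1 (the dimmer HAUS3 probe) with robust eBayes. All probes called numbered 3912 in the report, and 6055 after quantile normalization, 9472 after 75th percentile scaling, 8902 after cyclic loess normalization, 8585 and 10326 with probes above the lowest value on at least 1 and on all 4 arrays, and 564 with robust eBayes. The 14 related genes called became 29 (26 higher), 38 (21 higher), 37 (34 higher), 29 (17 higher), 33 (19 higher) and 2 (1 higher) in the same order. They became 17 (11 higher and 6 lower) when the probe with the largest log2 fold change in size stood for each gene. With the replicate number as a block, 0 HAUS probes, 0 related genes and 0 of all probes passed, the smallest adjusted p from limma being 0.142, while 7, 25 and 7701 had an unadjusted p under 0.05. Leaving out ND replicate 1, ND replicate 2, HD replicate 1 or HD replicate 2 gave 0 to 0 HAUS probes, 0 to 0 related genes and 0 to 0 of all probes, with smallest adjusted p-values of 0.0665 to 0.127 from limma and 5 to 7, 26 to 29 and 7072 to 9072 at an unadjusted p under 0.05, in fits that keep 1 residual degree of freedom and assume that the lone array varies like the other group. Replicates that share a number share nothing else in the labels, and the difference between replicates correlated at -0.323 across probes between the groups. With the numbers crossed, a pairing added after seeing the data, 0 HAUS probes, 0 related genes and 0 of all probes passed (smallest adjusted p = 0.0641 from limma; 6, 36 and 9979 at an unadjusted p under 0.05).

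By the study's criteria the counts stayed within 1.5 times those in the report, with 3 to 5 HAUS probes and 2870 to 4011 of all probes when an array was left out. The share of these calls that were higher was 49.4%, against 64.01% with quantile and 61.4% with cyclic loess normalization. The HAUS3 log2 fold changes ran from 3.17 to 3.77 and from 1.20 to 1.26 without 1 array, and from 3.43 to 3.50 and 1.22 to 1.30 over the 3 other scalings. No called HAUS probe changed direction under any alternative. HAUS7 has no value under the filters. The intensities give no counts, and probes near 50 have only bounded differences.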
